A study of Mus musculus with 6 samples.

Results

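The 9 genes examined here encode enzymes of methionine and one-carbon metabolism in liver: Mat1a, Gnmt, Ahcy, Bhmt, Cbs, Cth, Cdo1, Shmt1 and Pemt. They were chosen by name from the pathway, were all present among the 22911 genes of the array, and were read by 13 of its 56605 probes, since 4 of them (Bhmt, Cdo1, Shmt1 and Pemt) had 2 probes each. Liver RNA came from male mice that were 12 weeks old when the feeding began and whose strain is not given in the sources used here. The 3 control mice ate regular chow, and the 3 soy mice ate the same chow with 25% soy bean for 4 weeks. Each mouse gave 1 single-colour array, so n = 3 in each group throughout and p-values measure the spread between these mice. All 10 hepatocyte markers examined (among them Alb and Apoa1) were well above background on every array, as were all 13 probes of the 9 genes. The arrays differed by diet in how much they detected: 37010, 36366 and 38163 of 59305 spots were well above background in control mice 1 to 3, against 31308, 31988 and 32498 in soy mice 1 to 3, with no overlap. The lowest log2 signal among probes well above background was 6.22 to 6.32 on the control arrays and 6.42 to 6.78 on the soy arrays. The part of this difference in the results was not tested.

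Methionine is first activated to S-adenosylmethionine, the methyl donor of the cell, and each methyl transfer leaves S-adenosylhomocysteine, which is split to homocysteine. Homocysteine is either methylated back to methionine, with betaine or a folate as the donor, or passed on through cystathionine to cysteine, the route called transsulfuration. Liver is the main site of this cycle, and soy protein is known as comparatively poor in methionine. The study's diet analysis gave more total protein and more lipid in the soy chow than in the regular chow. The methionine content of these diets and the metabolites themselves were not measured here.

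None of the 9 genes passed the test of soy against control. A probe passed at a Benjamini-Hochberg adjusted p below 0.05 in limma together with a fold above 1.5 or below 0.66. On this rule 198 probes of 122 genes and of transcripts without a symbol passed, or 0.35% of all probes, 0.208% higher and 0.141% lower in soy, while 0 of the 13 probes of these genes did. The passing probes were 118 higher and 80 lower in soy; with the processed signal scaled to its 75th percentile, which put the median change of all probes at 0.125, they were 11924 higher and 1214 lower, and still none of the 9 genes passed. At an unadjusted limma p under 0.05, 2 of the 9 genes had a probe (Ahcy and the second probe of Bhmt). On the brightest probe it was 1 of 9, or 11.1%, against 20.1% of the 13513 genes well above background on every array, so the members did not exceed the background. Over the brightest probes of the 9 genes the limma 95% intervals of the change lay between -0.82 and 0.31 on the log2 scale. Over all 13 probes they lay between -1.03, for the second probe of Bhmt, and 0.31.

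The 3 sequences that follow are the 250 bases before the transcription start of Ahcy and Bhmt, the 2 members with the largest measured differences, and of Got1, the only gene of the wider pathway that passed the test. They are from RefSeq on GRCm38.p6, read 5′ to 3′ on the minus strand, at chr2:155074498-155074747 for Ahcy, chr13:93637759-93638008 for Bhmt and chr19:43524606-43524855 for Got1. Capitals mark matches, on either strand, to the motifs searched.
Ahcy: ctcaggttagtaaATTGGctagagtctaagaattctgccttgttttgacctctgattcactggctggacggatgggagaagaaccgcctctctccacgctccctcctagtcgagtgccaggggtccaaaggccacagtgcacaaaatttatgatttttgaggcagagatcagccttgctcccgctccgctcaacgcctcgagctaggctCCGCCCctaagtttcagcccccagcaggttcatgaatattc
Bhmt: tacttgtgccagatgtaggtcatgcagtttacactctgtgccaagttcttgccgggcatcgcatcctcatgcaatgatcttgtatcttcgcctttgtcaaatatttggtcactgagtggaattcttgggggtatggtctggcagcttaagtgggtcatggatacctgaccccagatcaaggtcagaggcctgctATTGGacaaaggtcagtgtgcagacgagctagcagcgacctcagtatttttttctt
Got1: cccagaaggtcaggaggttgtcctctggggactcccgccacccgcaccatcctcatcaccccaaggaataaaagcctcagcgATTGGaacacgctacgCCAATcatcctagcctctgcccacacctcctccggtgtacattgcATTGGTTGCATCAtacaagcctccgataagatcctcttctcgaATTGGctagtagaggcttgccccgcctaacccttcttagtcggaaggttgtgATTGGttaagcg
The motifs were the TATA box (TATAAA, in 12.4% of 32851 promoters), the CCAAT box (CCAAT, 33.8%), the GC box (GGGCGG, 32.7%), the antioxidant response element (TGACNNNGC, 10.2%) and the ATF4 element (TGATGNAA, 3.45%). Ahcy held a CCAAT box that began 237 bases before the start and a GC box at 41 bases, and Bhmt a CCAAT box at 56 bases. Got1 held 5 CCAAT boxes and an ATF4 element that began 102 bases before the start, next to one of them. Of the 9 members, 6 matched an entry of the promoter table (Gnmt, Ahcy, Bhmt, Cbs, Shmt1 and Pemt). A match is a run of letters and not a measured binding site.

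Mat1a and Gnmt stand at the head of the cycle. Mat1a (NM_133653) encodes a methionine adenosyltransferase of adult liver, which makes S-adenosylmethionine. Its log2 intensity was 15.77, 15.50 and 15.54 in control mice 1 to 3, and 15.53, 15.33 and 15.13 in soy mice 1 to 3. The groups overlapped, because soy 1 stood above control 2, and soy 3 was the lowest of the 6 arrays. The change was -0.28 (SE 0.135, limma adjusted p = 0.490). Gnmt (NM_010321), glycine N-methyltransferase, uses up S-adenosylmethionine in hepatocytes by methylating glycine. It read 17.57, 17.37 and 17.30 in the control mice and 17.31, 17.08 and 16.93 in the soy mice. Soy 1 lay between the control values and soy 3 was again the lowest array. The change was -0.30 (SE 0.133, limma adjusted p = 0.444).

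Ahcy (NM_016661), S-adenosylhomocysteine hydrolase, splits the product of every methyl transfer and had the largest difference among the brightest probes of the members. It read 12.76, 12.99 and 13.10 in the control mice and 12.77, 12.54 and 12.29 in the soy mice. Control 1 and soy 1 were nearly equal, with soy 1 just above, so the groups overlapped, and soy 3 was the lowest array. The change was -0.41 (SE 0.151), a fold of 0.75, with an unadjusted p of 0.027 and an adjusted p of 0.354 in limma. Within slide 1, which held control 1, control 2 and soy 1, the difference was -0.10, and within slide 3, which held control 3 and soy 3, it was -0.81.

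Bhmt (NM_016668), betaine-homocysteine methyltransferase, returns homocysteine to methionine with betaine as the donor. Its brighter probe read 18.48, 18.35 and 18.30 in the control mice and 18.12, 18.24 and 17.56 in the soy mice. Every soy mouse was below every control mouse, and soy 3 lay well under the other 5 arrays. The change was -0.40 (SE 0.179, limma adjusted p = 0.449). The second probe read 15.83, 16.00 and 16.15 in the control mice and 15.73, 15.72 and 14.95 in the soy mice. It too separated the groups, with soy 3 far below the rest, and its change was -0.53 (SE 0.219, limma adjusted p = 0.419). Without soy 3 the change of the brighter probe was -0.20, so this 1 array moved the value by over 1.5 times.

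**Figure D1:**
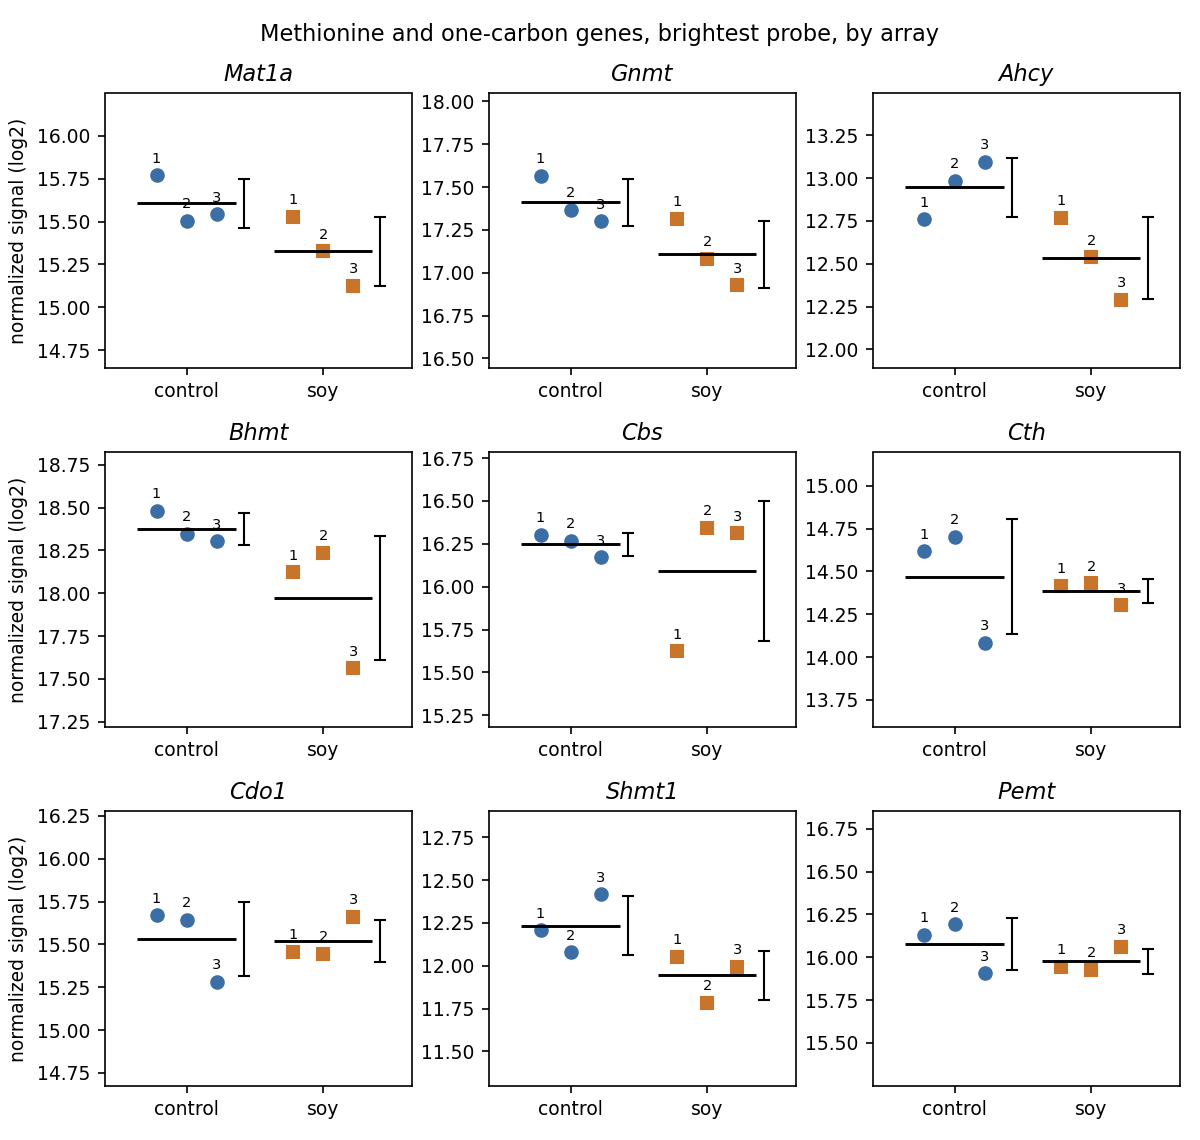
Log2 intensity of the 9 genes (y axis, brightest probe of each gene, every panel spanning the same range of log2 units) in the 3 control and 3 soy mice (x axis); points are arrays numbered by mouse, horizontal lines group means and bars the SD. Groups do not overlap for Bhmt and Shmt1, and soy 3 is the lowest point for Mat1a, Gnmt, Ahcy and Bhmt.

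The transsulfuration enzymes did not separate the groups. Cbs (NM_144855), cystathionine beta-synthase, commits homocysteine to cysteine. It read 16.30, 16.27 and 16.17 in the control mice and 15.62, 16.34 and 16.31 in the soy mice. Soy 1 alone was low, and the other soy mice were above all control mice. The change was -0.15 (SE 0.194, 95% interval -0.61 to 0.30, limma adjusted p = 0.808), and without soy 1 it was 0.08. Cth (NM_145953), cystathionine gamma-lyase, releases the cysteine. It read 14.62, 14.70 and 14.09 in the control mice and 14.42, 14.43 and 14.30 in the soy mice. All soy values lay inside the control range, whose low end was control 3. The change was -0.08 (SE 0.168, 95% interval -0.47 to 0.31, limma adjusted p = 0.887), and without control 2 it was 0.03.

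Cdo1 (NM_033037), cysteine dioxygenase, oxidises cysteine on the way to taurine and sulfate. Its brighter probe read 15.67, 15.64 and 15.28 in the control mice and 15.46, 15.44 and 15.66 in the soy mice. The soy values all lay within the control range. The change was -0.01 (SE 0.136, 95% interval -0.33 to 0.30, limma adjusted p = 0.985), and the second probe gave -0.09. The sign of this change was kept in 7 of the 14 alternatives tried.

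Shmt1 and Pemt connect the cycle to folate and to phospholipid. Shmt1 (NM_009171), cytosolic serine hydroxymethyltransferase, moves a carbon unit between serine and folate. Its brighter probe read 12.21, 12.08 and 12.42 in the control mice and 12.05, 11.78 and 11.99 in the soy mice. The groups did not overlap, but control 2 and soy 1 were close together. The change was -0.29 (SE 0.127, limma adjusted p = 0.445), and the second probe, whose groups overlapped, gave -0.11. Pemt (NM_008819), which methylates phosphatidylethanolamine to phosphatidylcholine, read 16.13, 16.19 and 15.91 in the control mice and 15.94, 15.93 and 16.06 in the soy mice. The soy values lay within the control range, and the change was -0.10 (SE 0.112, limma adjusted p = 0.782), with -0.17 on the second probe. With 1 array left out it ran from -0.04 without control 2 to -0.19 without control 3.

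**Figure D2:**
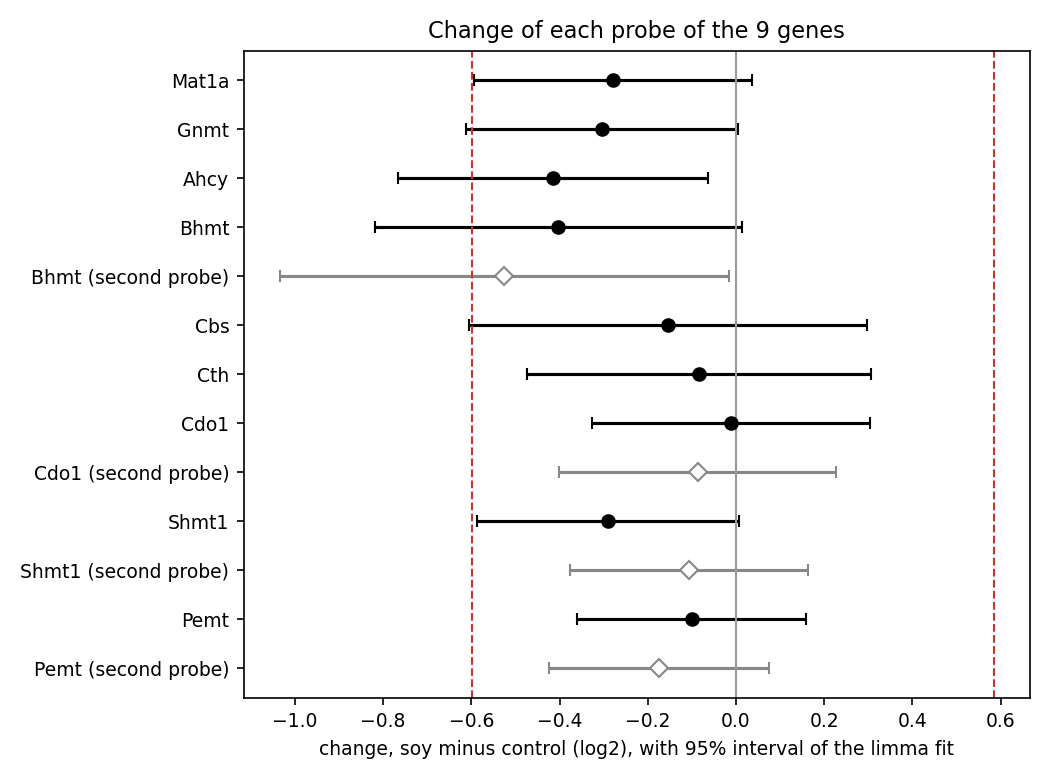
Change in soy against control (x axis, log2) for the 13 probes of the 9 genes (y axis); points are limma estimates and bars their 95% intervals, with dashed lines at folds of 1.5 and 0.66. All 13 estimates are below 0, that of Cdo1 barely so, and the intervals of Ahcy and of the second Bhmt probe end below 0.

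All 13 probes read lower in soy, though Cdo1 changed sign in 7 of the 14 alternatives and Cbs and Cth in 1 each. The median change of the 9 genes was -0.28. Among the 13513 genes well above background on every array the median was -0.01, and 50.9% of them were lower in soy. Of those genes, 6.49% had a change as low as that of Ahcy or lower, 6.89% as low as Bhmt, 11.2% as low as Gnmt, 11.9% as low as Shmt1 and 12.6% as low as Mat1a. Cbs at 24.9%, Pemt at 33.2%, Cth at 36% and Cdo1 at 48.8% stood nearer the middle. Groups did not overlap for 2 of the 9 genes, Bhmt and Shmt1, both lower, against 25.6% of the genes well above background (13.3% higher and 12.2% lower), so this share was close to the background. Of the same genes 0.673% passed the test.

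The 5 larger differences were unequal between the slides. The difference within slide 1 was -0.11 for Mat1a, -0.15 for Gnmt, -0.29 for Bhmt and -0.09 for Shmt1. Within slide 3 it was -0.42, -0.37, -0.74 and -0.42 for the same genes. Slide 2 held soy 2 alone and gives no such value. Leaving out soy 3 left changes of -0.18 for Mat1a, -0.21 for Gnmt, -0.29 for Ahcy and -0.32 for Shmt1. In the limma fit with slide as a block the changes were -0.24 for Mat1a, -0.25 for Gnmt, -0.40 for Ahcy, -0.48 for Bhmt and -0.23 for Shmt1, so each kept its direction, and Cbs moved from -0.15 to -0.32. None of the 9 genes passed in that fit either. The part of soy 3 beyond the values without it was not tested.

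**Figure D3:**
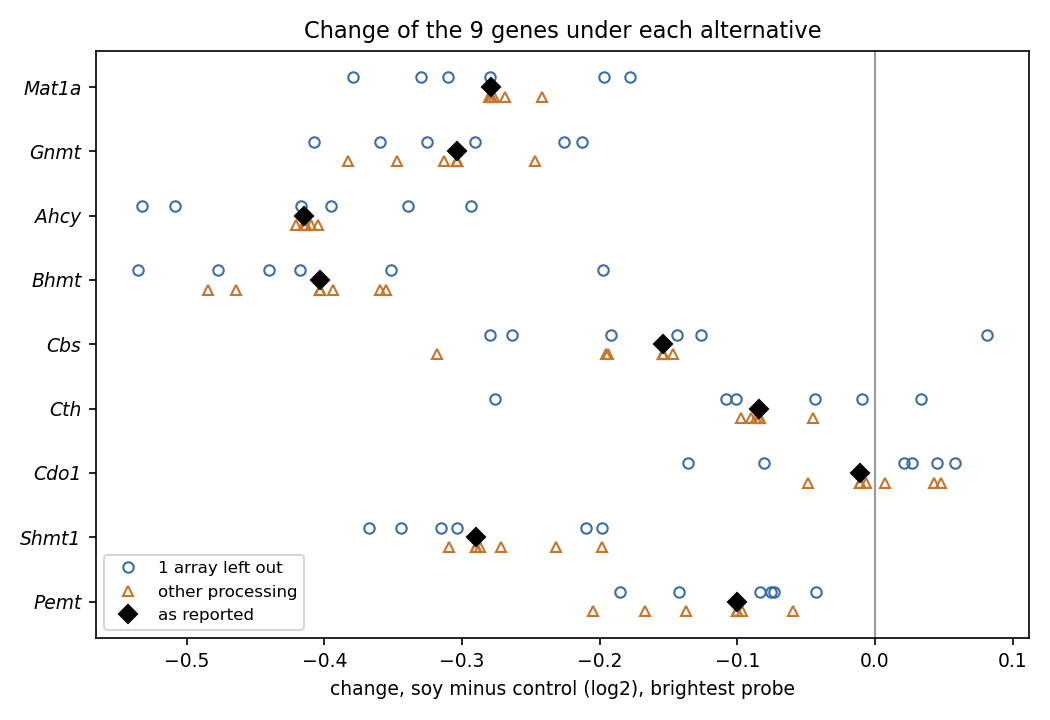
Change in soy against control (x axis, log2) of each of the 9 genes (y axis) as reported (diamonds), with 1 array left out (circles) and under other processing (triangles). Ahcy, Bhmt, Gnmt, Mat1a, Shmt1 and Pemt stay below 0 throughout, while Cbs, Cth and Cdo1 reach values above 0.

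Markers of other cells were read on the same arrays. Hepatocyte markers had a median change of -0.10, were lower for 7 of 10 genes, and had summed intensities that overlapped between groups. All 6 pancreatic acinar markers were lower in soy (median -0.30, none passed), and their summed intensity was 35077, 50595 and 42723 in the control mice against 26592, 31401 and 23629 in the soy mice. Cela1 had the brightest probe of them. Cpa1, Pnlip and Prss1 were dim: no soy array read them well above background, and neither did 1 of the 3 control arrays, while soy arrays had fewer such spots of any kind. Stellate cell markers summed to 12718, 9601 and 9709 in the control mice and 7923, 8448 and 9581 in the soy mice, with the brightest probe that of Acta2 and 5 of 7 genes lower. The sums of Kupffer cell, endothelial, cholangiocyte and red cell and neutrophil markers overlapped. All 5 red cell and neutrophil markers were higher in soy, with a median change of 0.42 (from 0.26 to 0.62), and none passed or separated the groups. Their sum was 171286, 127382 and 184651 in the control mice and 141038, 291110 and 167677 in the soy mice. By this sum only soy 2 stood above the control mice. The part of all these markers in the member values was not tested, and in bulk tissue fewer cells of a type and less RNA per cell cannot be told apart.

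The wider pathway was read in 6 lists that together held 77 genes on the array, and 1 of them passed. On their brightest probe 0.458% of all genes passed, and 0.673% of the genes well above background on every array. Groups did not overlap for 17 of the 77 genes, against 20.4% of all genes (9.67% higher and 10.8% lower). Among the genes well above background on every array, to which most of the 77 belonged, the share was 25.6% (13.3% higher and 12.2% lower). The count that passed was 9 of 77 with the processed signal (6 higher and 3 lower), where 5892 of all 22911 genes passed, so a pass of a single gene under that scaling sets it little apart. It was 3 among probes well above background, and 0 to 2 with 1 array left out, being 0 without control 1 and without each soy mouse in turn. The 1 gene that passed with all arrays was Got1, the cytosolic aspartate aminotransferase, which also acts on cysteine sulfinate, the product of Cdo1. It read 16.77, 16.34 and 15.60 in the control mice and 14.10, 14.18 and 13.80 in the soy mice. Each soy mouse was far below each control mouse. Got1 fell by 2.21 on the log2 scale (SE 0.276, limma adjusted p = 0.0308), and its second probe by 2.23 (adjusted p = 0.0177). With slide as a block the adjusted p of the brighter probe was 0.0859, while Got1 still passed through its second probe. With 1 array left out Got1 passed only without control 3.

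The list of cysteine and sulfur metabolism, 12 genes with Got1 among them, had a median change of 0.13, with 7 higher and 5 lower. Csad (NM_144942), cysteine sulfinate decarboxylase, makes the precursor of taurine from the product of Cdo1. It read 14.33, 12.97 and 14.33 in the control mice and 16.06, 16.00 and 16.30 in the soy mice. The soy mice all lay above the control mice, of which control 2 was low. The change was 2.24 (SE 0.346), and the limma adjusted p of 0.0537 missed the threshold; it passed in 3 of the 14 alternatives, and its adjusted p ran from 0.00814 with the processed signal to 0.207 with slide as a block. The taurine transporter Slc6a6 had a change of 0.65 (adjusted p = 0.179, and 0.0221 with the processed signal) and the sulfurtransferase Tst one of -0.20 in limma.

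None of the other genes of the methionine cycle passed: of 9, 5 were higher and 4 lower, with a median change of 0.04. Mmadhc, a protein of cobalamin trafficking, had a change of 0.27 and Mtrr, which keeps methionine synthase active, one of -0.30. Mat2a, another methionine adenosyltransferase, was well above background on every array and had a change of -0.16. Ahcyl2, a relative of Ahcy, had a change of 0.16 on its brighter probe. Its second probe gave -0.11, and the mean of both probes 0.03. With 1 array left out Ahcyl2 ran from -0.01 without control 2 to 0.50 without control 3, and Mat2a from -0.22 without control 1 to -0.08 without control 3. Of 9 genes of methionine salvage and polyamine synthesis, 6 were higher and 3 lower (median 0.05), with Sms, spermine synthase, at 0.37, Adi1 and Apip, of the salvage route, at 0.27 and -0.22, and Srm, spermidine synthase, at -0.05. Srm kept its sign in 9 of the 14 alternatives and ran from -0.24 without soy 1 to 0.09 without soy 3, and Apip ran from -0.32 to -0.12 with 1 array left out.

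Among 21 genes of folate metabolism 13 were higher and 8 lower, with a median of 0.09. Fpgs, which retains folate in cells, had a change of 0.69 (limma adjusted p = 0.166, and 0.0345 with the processed signal). Slc25a32, the mitochondrial folate carrier, had a change of -0.82 (limma adjusted p = 0.0796), and passed with the processed signal (0.0124) and among probes well above background (0.0430). Its second probe gave -0.30 (limma adjusted p = 0.331), and the mean of both probes -0.56 (limma adjusted p = 0.0569). Aldh1l1, which oxidises formyl folate, had a change of -0.35, which was -0.21 without control 2.

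Of 13 genes of glycine, serine and choline metabolism 9 were higher and 4 lower (median 0.07). Psat1, of serine synthesis, read 7.19, 7.06 and 6.88 in the control mice and 7.98, 8.70 and 9.57 in the soy mice. The change was 1.71 (limma adjusted p = 0.115), and its second probe was well above background on 1 control array and no soy array, so it gives no level for the comparison. By the mean of both probes the change of Psat1 was 0.50 (limma adjusted p = 0.598), and with the processed signal it was 2.82 (0.0115) and passed. Sds, serine dehydratase, had a change of -1.13 (limma adjusted p = 0.151), and passed without control 3 (0.0175) and with the processed signal (0.0475). Gldc, of glycine cleavage, had a change of 0.84 and Dmgdh, which oxidises dimethylglycine, one of -0.32 (-0.21 without soy 3). Of 13 methyltransferases that use S-adenosylmethionine 5 were higher and 8 lower (median -0.11), from Dnmt1, the maintenance DNA methyltransferase, at 0.22 to Nnmt, which methylates nicotinamide, at -0.72 (limma adjusted p = 0.559). Tpmt, which methylates thiopurines, had a change of -0.56. With 1 array left out Nnmt ran from -1.11 without control 2 to -0.29 without control 1, and Tpmt from -1.09 without control 1 to -0.22 without control 2, and Dnmt1 was 0.10 without control 1.

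**Figure D4:**
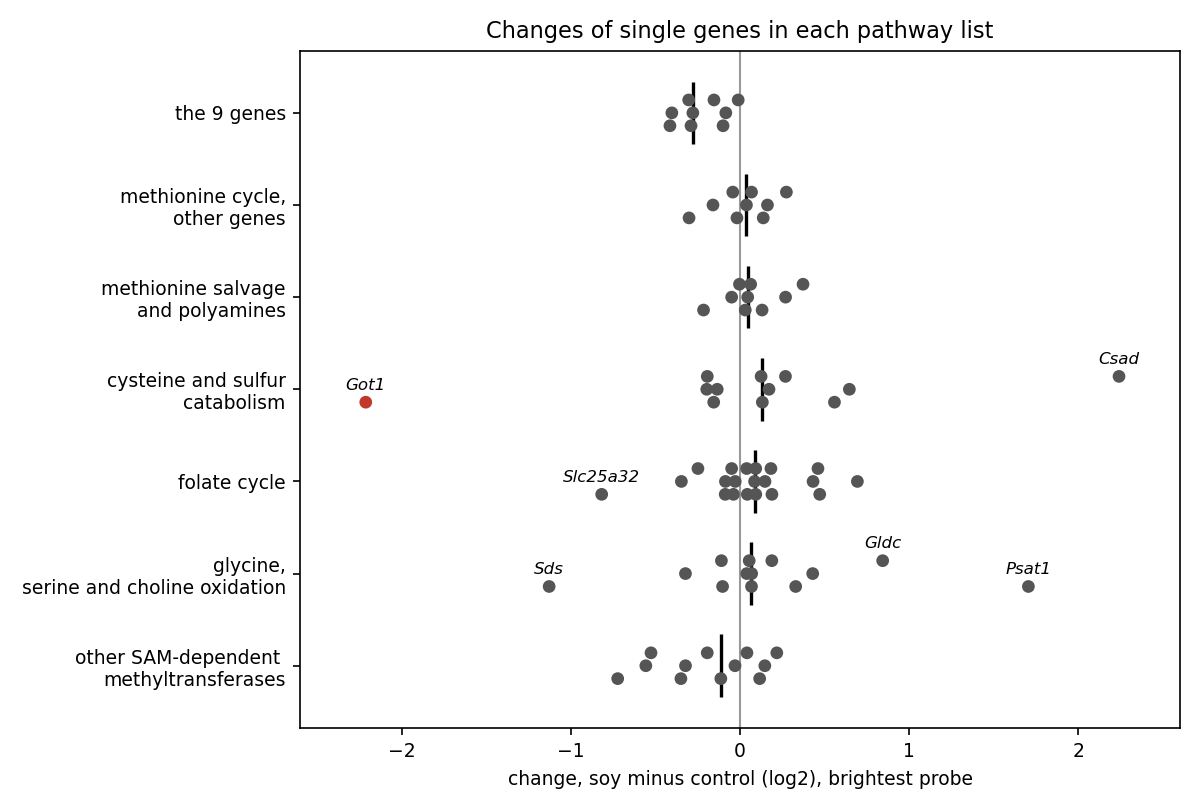
Change in soy against control (x axis, log2) of the brightest probe of genes in the 9 members and the 6 pathway lists (y axis); points are genes, bars medians of the whole lists and red marks a gene that passed. Got1 is the only red point and lies farthest left, Csad lies farthest right, and the list medians lie between -0.28 and 0.13.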

How the data were processed

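Liver RNA of 3 control and 3 soy mice was hybridised to 1-colour Agilent mouse arrays, and per the file headers the deposited intensities came from Feature Extraction 11.5.1.1. The deposited value table holds log2 values of the same arrays; the largest gap to the values computed here was 0.0705. The study's methods name median signals, limma and Benjamini-Hochberg adjustment; a background correction and a normalization are not given in the sources used here. Median intensities were corrected with normexp (offset 50), quantile normalized, put on the log2 scale and averaged per probe; control spots and outlier spots were left out. limma was fitted to all 56605 probes with diet as the only term, and each gene is given by its brightest probe. Symbols came from RefSeq accessions and named 58.3% of probes. Spots well above background per array are given at the start of the results, 0 were saturated, and the number of arrays limits the precision. From each pathway list, the text names every gene that passed and, among genes read well above background throughout at least 1 group, the 2 with the highest and the 2 with the lowest change, except genes that are not reported here. Alternatives changed the background correction, normalization, filter, probe summary and blocks, or left out 1 array. The members and lists were chosen with earlier results of these data known. The fit was tested on simulated data. Tools were R 4.3.3 and limma 3.58.1.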

Additional observations from a re-analysis of the deposited data

How the results depend on the processing

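No member passed under any of the 14 alternatives, where the smallest adjusted limma p of a member was 0.135 (Ahcy, processed signal). The count of genes that passed, 122 with all arrays and the settings of the text, was 5892 with the processed signal scaled to its 75th percentile, of which 5332 had a probe that passed higher and 615 one lower, against 78 and 44 in the main setting. That scaling also moved the median change of all probes to 0.125. It was 313 among probes well above background, 51 with the replicate number as a block, 16 with slide as a block, and 18 to 130 with 1 array left out. The members without overlap, 2 in the text, were 1 by the mean of a gene's probes and 2 to 6 with 1 array left out, where 33.1% to 38.7% of the genes well above background were also without overlap, against 25.6% with all arrays. The change of Cdo1 was 0.0427 with the processed signal, 0.00753 with cyclic loess and 0.0481 with slide as a block; with 1 array left out it ran from -0.136 to 0.0580, that of Cth from -0.276 to 0.0333 (without control 2) and that of Cbs from -0.280 to 0.0812 (without soy 1). The causes were not tested. The replicate numbers were not shown to pair the mice, since same-numbered arrays deviated together with r of 0.12, -0.06 and 0.10 and 3 of 6 arrays were closest to their own number; the block changed no call of a member.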

Other observations

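Over the 6 arrays, the genes whose brightest probe ran most like Ahcy, of 13432 candidates well above background, were Cphx1 (Pearson r = 0.99), 2810471M01Rik (r = 0.99) and Zap70 (r = 0.99). None of the 3 passed the test, and with 6 arrays in 2 diet groups these values are a description.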
